A study of Mus musculus with 24 samples.

Results

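Desmosomes are spot-like junctions that rivet neighboring epithelial cells together. Their transmembrane cadherins, the desmogleins and desmocollins, meet between cells, while plakoglobin and the plakophilins bind the cadherin tails inside the cell and desmoplakin ties this plaque to the keratin filaments. Stratified epithelia such as epidermis carry many of them, and squamous differentiation of bladder tumors goes with a stratified, keratin-rich phenotype. RNA of 10 desmosome genes, chosen by name out of 53465 genes measured, was described in 24 tumors: the desmogleins Dsg2 and Dsg3, the desmocollins Dsc2 and Dsc3, desmoplakin (Dsp), plakoglobin (Jup), the plakophilins Pkp1, Pkp2 and Pkp3, and Perp, a membrane protein needed for desmosome assembly and a p53 and p63 target.

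The tumors belong to the BURP series of mouse bladder tumor lines. C57BL/6NTac mice, 8 weeks old at the start, drank water with 0.1% of the bladder carcinogen BBN for up to 36 weeks, and the bladder tumors that formed were passaged under the skin of hosts of the same strain and sex. Each of the 8 lines came from 1 donor mouse, so that the 3 tumors of a line are separate tumors that share a donor. In tests that fit each line by itself, p-values measure the spread between such tumors. Tests with Ba/Sq lines pooled into a group (BURP-19NE or BURP-16SR against Ba/Sq, male against female) also take in the spread between lines. Such pooled tests treat the tumors of a donor as independent. BURP-12BaSq, BURP-17BaSq and BURP-18BaSq are basal/squamous (Ba/Sq) lines from male mice, BURP-21BaSq, BURP-24BaSq and BURP-25BaSq are Ba/Sq lines from female mice, and BURP-16SR (stroma-rich) and BURP-19NE (neuroendocrine-like) are lines from male mice. The genes lie on 7 chromosomes of GRCm38, with Dsp at chr13:38151294-38198577, Jup at chr11:100368958-100397763, Pkp1 at chr1:135871395-135919207, Pkp2 at chr16:16213318-16272712, Pkp3 at chr7:141078218-141090510, Perp at chr10:18845020-18857073 and the 4 cadherin genes together on chromosome 18. All of the tumors grew subcutaneously in hosts with an intact immune system, and no normal bladder was used here as a control.

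Total RNA was depleted of ribosomal RNA and sequenced, and between 9295708 and 25370320 counts were obtained per tumor. Levels are given as CPM, the usual count of a gene scaled to a common library size, and a floor of 3 counts lay between 0.106 and 1.33 CPM in these libraries. Floors and counting intervals cover counting error only. A pair of libraries of BURP-25BaSq stood apart, namely C102-M30, in which the ribosomal RNA gene CT010467.1 took 61.9% of the counts and 9021 counts fell on the 10 genes, and C102-M1, whose RNA was closer to BURP-21BaSq (mean Pearson r 0.978 over 21383 genes) than to its own line (0.923). Tumor C165-M30 of BURP-17BaSq was also slightly closer to another line, BURP-24BaSq (0.947), than to its own (0.943), and each of the other 16 Ba/Sq tumors was closest to its own line. The defining markers of the labelled tissue were in part absent. The basal genes Krt5, Krt14 and Trp63 were high in Ba/Sq tumors (means 4130, 3731 and 393 CPM). The uroplakin Upk3a, made by mature urothelium, averaged 0.0400 CPM there and had 0 counts in BURP-19NE and BURP-16SR. Upk1a, Upk1b and Upk2 averaged 0.591, 2.48 and 0.907 CPM in Ba/Sq tumors, and Upk1a averaged 0.620 CPM in BURP-19NE and 0.228 in BURP-16SR. Gata3, another listed urothelial marker, was present throughout, with means of 51.2 CPM in Ba/Sq, 115.5 in BURP-19NE and 46.7 in BURP-16SR.

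RefSeq promoter sequences were matched for 2 of the 10 genes, Dsp and Jup, which encode the plaque proteins that link cadherins to keratin and were both far lower outside the Ba/Sq lines. The 250 bases before each transcription start are shown on the coding strand of the gene, build GRCm38.p6, with matches to the GC box (GGGCGG on either strand) in capitals.
Jup, chr11:100397791-100398040, minus strand: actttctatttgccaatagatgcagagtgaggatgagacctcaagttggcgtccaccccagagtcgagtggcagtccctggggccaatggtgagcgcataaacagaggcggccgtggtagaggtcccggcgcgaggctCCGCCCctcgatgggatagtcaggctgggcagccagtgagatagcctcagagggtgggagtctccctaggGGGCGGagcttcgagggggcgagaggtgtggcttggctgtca
Dsp, chr13:38151044-38151293, plus strand: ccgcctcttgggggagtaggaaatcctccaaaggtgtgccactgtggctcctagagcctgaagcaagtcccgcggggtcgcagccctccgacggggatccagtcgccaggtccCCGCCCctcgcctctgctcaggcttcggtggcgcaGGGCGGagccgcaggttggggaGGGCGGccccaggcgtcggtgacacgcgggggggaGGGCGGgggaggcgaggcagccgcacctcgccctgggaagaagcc
The Jup window held 2 GC box matches at 62.0% GC and the Dsp window held 4 at 72.4% GC. Over 32851 mouse promoters of the same length the median was 52.4% GC, and 32.7% held a GC box match. Neither window held the AP-1 motif TGANTCA, which 6.75% of promoters held. An E-box, searched as CACCTG, was held by 17.2% of promoters and a TATA box, searched as TATAAA, by 12.4%, and neither window held one. All motifs were searched on both strands, and none of those in capitals overlaps another motif searched. A match of letters is a description of the window and no evidence that a factor binds there.

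All 10 desmosome genes had counts in every Ba/Sq tumor, and in both BURP-19NE and BURP-16SR all but Pkp2 were far lower. The CPM of the 10 genes summed to 6562 ± 2025 (SD, n = 18) in Ba/Sq tumors, 197 ± 35.4 (n = 3) in BURP-19NE and 48.2 ± 14.4 (n = 3) in BURP-16SR. The lowest Ba/Sq tumor reached 3510 CPM and the highest of the other 6 tumors reached 233 CPM, so the groups did not overlap. Per kilobase of exons, Perp (386 CPM per kb) and Dsp (339) had the highest mean levels in Ba/Sq tumors, followed by Pkp1 (157) and Jup (104), and Dsg2 (7.78) and Pkp2 (1.22) the lowest. In these bulk samples, fewer cells of a type and less RNA per cell cannot be told apart.

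**Figure D1:**
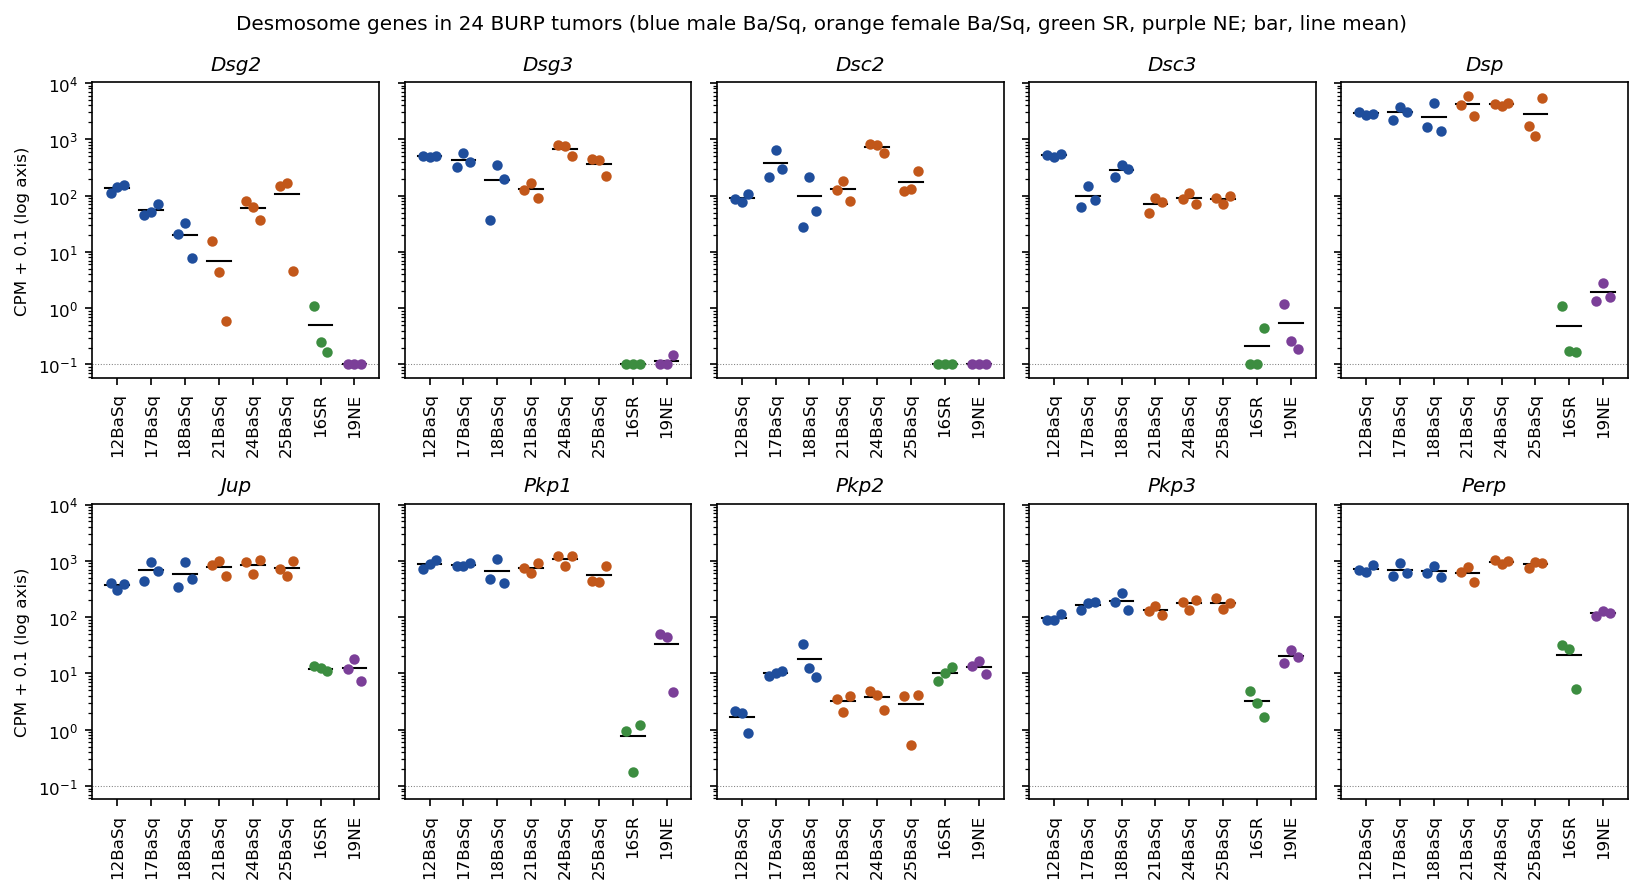
CPM of each desmosome gene plus 0.1 (log axis, dotted line at 0 counts) in the 24 tumors by line, each point a tumor and each bar a line mean. In 8 of the 10 panels all tumors of BURP-16SR and BURP-19NE lie below all 18 Ba/Sq tumors, in the Dsg2 panel 1 Ba/Sq tumor (0.493 CPM) lies among those of BURP-16SR, and the Pkp2 panel has no such gap.

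Of the 10 genes, 9 were lower in BURP-19NE than in the Ba/Sq tumors by edgeR's quasi-likelihood test (Benjamini-Hochberg adjusted p under 0.05 and more than 2-fold), against 15.5% of the 20995 genes tested that were called lower. The same 9 genes were lower in BURP-16SR, where 8.62% of 21028 genes were called lower. Dsg2, Dsg3, Dsc2 and Dsc3, with few or no counts in both lines, passed the filter on low counts only through the Ba/Sq tumors. They could thus only come out lower. Dsp and Pkp1 passed in the same way in BURP-16SR. With at least 10 counts required in every tumor, 5 genes were called in BURP-19NE and 3 in BURP-16SR, all that could still be tested. The median log2 fold change of the 10 genes was -7.25 in BURP-19NE and -8.66 in BURP-16SR, or -7.23 and -8.64 with genes at 0 set at their bound, while the medians over all genes were -0.18 and -0.03. Both comparisons share the 18 Ba/Sq tumors. Every BURP-19NE tumor lay below every Ba/Sq tumor for 9 of the 10 genes, as did 8.5% of all genes tested. The same held in BURP-16SR for 8 genes, against 5.57% of all genes, since BURP-16SR overlapped the lowest Ba/Sq tumor in Dsg2.

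**Figure D2:**
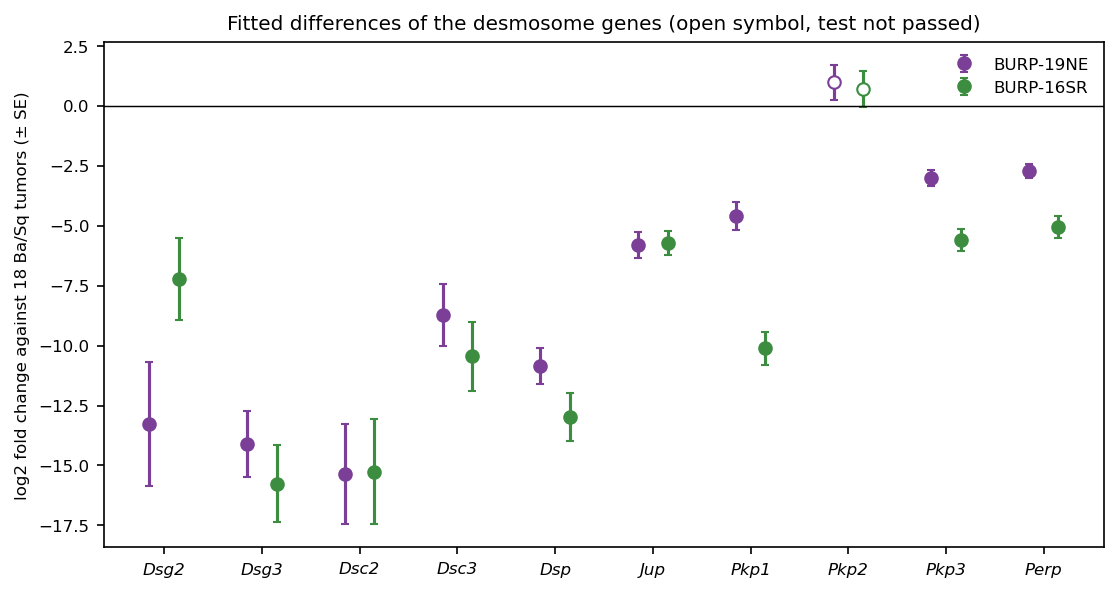
Fitted log2 fold change (± SE) of each desmosome gene in BURP-19NE and BURP-16SR against the 18 Ba/Sq tumors, with open symbols where the test was not passed. Pkp2 is the gene above 0 (0.99 and 0.70), and the fits of genes with 0 counts in a line (Dsg2 and Dsc2 in BURP-19NE, Dsg3 and Dsc2 in BURP-16SR) depend on the prior count.

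The 4 cadherin RNAs were at 1.09 CPM or less in each of the 6 tumors outside the Ba/Sq lines. Dsc2, the desmocollin of both simple and stratified epithelia, lay between 27.4 and 823 CPM in Ba/Sq tumors (median 158) and had 0 counts in all 6 other tumors. The difference was at least 1715-fold in BURP-19NE (adjusted p = 1.62e-05, edgeR) and at least 1066-fold in BURP-16SR (adjusted p = 3.94e-05), taking the highest floor of 3 counts per library in each line (0.157 and 0.253 CPM). Dsg3, the pemphigus antigen of basal keratinocytes, lay between 36.4 and 796 CPM (median 412) in Ba/Sq tumors and had 0 counts in BURP-16SR, at least 1513-fold lower (adjusted p = 4.74e-07). In BURP-19NE a single count was found, in C80-M30, so that the ratio of 24928 had a 95% counting interval from 4474 to 984595 (adjusted p = 9.42e-08).

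Dsg2, the widely expressed desmoglein, varied more within the Ba/Sq group, from 0.493 to 169 CPM with a median of 48.3. All 3 BURP-19NE tumors had 0 counts, at least 409-fold below the Ba/Sq mean (adjusted p = 0.000619, edgeR). In BURP-16SR the values were 1.01, 0.154 and 0.0695 CPM, 156-fold below the Ba/Sq mean (log2 fold change -7.22 ± 1.70 SE, adjusted p = 0.0037). With counts summed per line, so that each line is 1 sample, Dsg2 was not called in BURP-19NE (adjusted p = 0.0593) or BURP-16SR (adjusted p = 0.14). Dsc3, the desmocollin of basal layers, ranged from 48.2 to 545 CPM in Ba/Sq tumors, with a median of 94.2. It was 1.09, 0.157 and 0.0902 CPM in BURP-19NE (log2 fold change -8.72 ± 1.31 SE, adjusted p = 2.94e-05), and 0, 0 and 0.348 CPM in BURP-16SR (-10.45 ± 1.44, adjusted p = 1.56e-05).

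All desmoglein and desmocollin genes of the mouse lie side by side in one cluster, 9 genes over 643.6 kb of chromosome 18 (GRCm38, chr18:19960930-20604521), in the order Dsc3, Dsc2, Dsc1, Dsg1c, Dsg1a, Dsg1b, Dsg4, Dsg3 and Dsg2. Of the 8 cluster genes with enough counts to test, all 8 were called lower in BURP-19NE and all 8 in BURP-16SR, where 15.5% and 8.62% of all genes were called lower. Dsg1a, Dsg4 and Dsc1 had Ba/Sq means of 2.56, 0.746 and 2.16 CPM and 0 counts in the other 6 tumors, so that they passed the filter on low counts only through the Ba/Sq tumors, and their differences are at least 4.75-fold (Dsg4) in BURP-19NE and at least 2.95-fold (Dsg4) in BURP-16SR. Dsg1b, the other cadherin with an appreciable level, averaged 53.6 CPM in Ba/Sq tumors and had 0 counts in the other 6 tumors. Dsg1b and Dsc2, also at 0 counts there, passed the filter in the same way. So did Dsg3, Dsg2 and Dsc3, which had too few counts to be tested between BURP-16SR and BURP-19NE. All 8 cluster genes could thus only come out lower, so their count cannot be weighed against the shares over all genes. The Dsg1 genes are near-identical copies, so how the reads were divided among Dsg1a, Dsg1b and Dsg1c is uncertain. Of the protein-coding genes within 500 kb of the cluster, 4 could be tested, all on the Dsg2 side, and neither line had any of them called lower. Noncoding genes there were not examined. These neighbors were chosen after values of these data were known. B4galt6, a lactosylceramide synthase gene and the tested neighbor nearest to Dsg2, was higher in BURP-19NE (184 against 14.2 CPM, log2 fold change 3.69, adjusted p = 3.65e-08) and was not called in BURP-16SR (26.0 CPM, adjusted p = 0.175). Trappc8, further along, averaged 61.9 CPM in Ba/Sq, 63.8 in BURP-19NE and 51.2 in BURP-16SR.

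**Figure D3:**
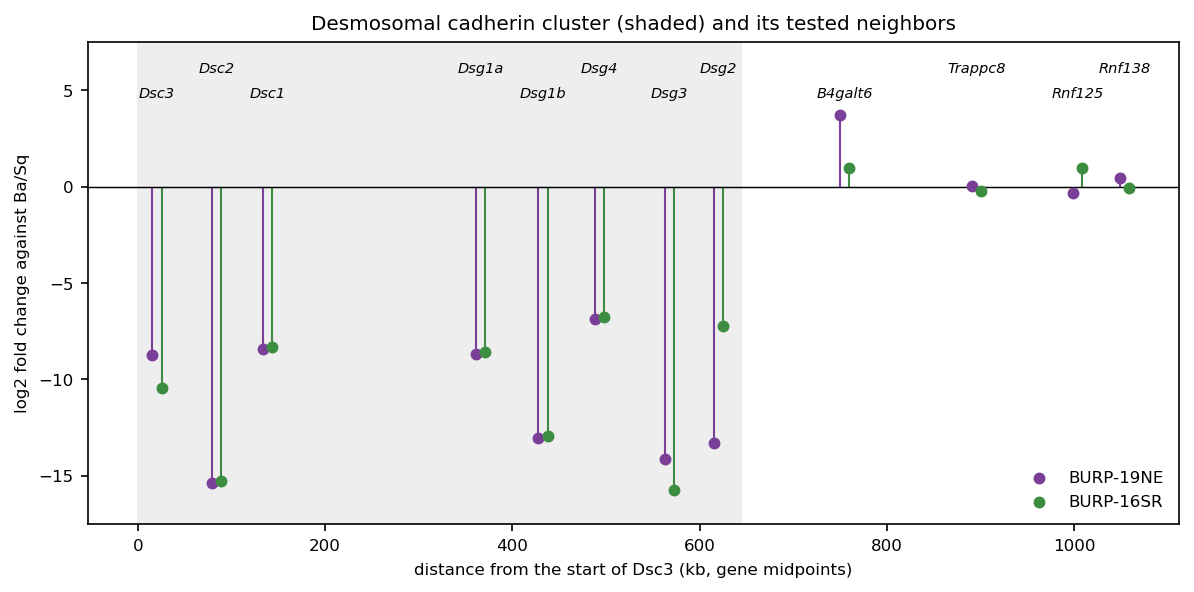
Log2 fold change against the Ba/Sq tumors, by gene midpoint in kb from the start of Dsc3, for the tested cadherin genes of the cluster (shaded) and the tested protein-coding genes within 500 kb. All 8 cadherin genes, which passed the filter on low counts only through the Ba/Sq tumors, lie below 0 in both lines. The 4 neighbors lie between -0.31 (Rnf125) and 3.69 (B4galt6) in BURP-19NE.

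Dsp, the plakin that anchors keratin filaments, ranged from 1149 to 5990 CPM in Ba/Sq tumors, with a median of 3092. It was 1.26, 2.67 and 1.49 CPM in BURP-19NE and 1.01, 0.0769 and 0.0695 CPM in BURP-16SR. These means were 1815-fold and 8491-fold below the Ba/Sq mean (log2 fold changes -10.84 ± 0.75 SE, adjusted p = 5.31e-10, and -13.00 ± 1.003, adjusted p = 3.05e-09, edgeR). The BURP-19NE values rest on 30, 51 and 33 counts, above the floor of 3 counts, whereas C74-MNT and P5 of BURP-16SR lay below their floors of 0.231 and 0.209 CPM.

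Jup kept a measurable level in both lines. Plakoglobin, which it encodes, binds desmosomal and classical cadherins alike. Ba/Sq tumors ranged from 307 to 1027 CPM with a median of 620.0, BURP-19NE had 11.6, 17.8 and 7.17 CPM, and BURP-16SR had 13.4, 12.2 and 10.7 CPM. The fold differences of the means were nearly equal, 54.8-fold in BURP-19NE (log2 fold change -5.79 ± 0.54 SE, adjusted p = 5.61e-08) and 55.2-fold in BURP-16SR (-5.71 ± 0.52, adjusted p = 3.5e-08).

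The plakophilins, which cluster cadherins and recruit desmoplakin, did not move together. Pkp1, the plakophilin of suprabasal stratified layers, lay between 399 and 1216 CPM (median 799) in Ba/Sq tumors. It was 50.5, 43.8 and 4.65 CPM in BURP-19NE, 23.98-fold below the Ba/Sq mean (log2 fold change -4.60 ± 0.59 SE, adjusted p = 3.9e-06). In BURP-16SR it was 0.843, 0.0769 and 1.11 CPM, 1168-fold below (-10.11 ± 0.69, adjusted p = 4.63e-10). The 3 BURP-19NE tumors were spread more than 10-fold in Pkp1, with C80-M30 the lowest.

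Pkp3, the plakophilin found in most desmosomes, ranged from 88.3 to 264 CPM (median 148.9) in Ba/Sq tumors. It fell to 14.9, 26.0 and 19.3 CPM in BURP-19NE (log2 fold change -2.99 ± 0.34 SE, adjusted p = 8.2e-07) and to 4.80, 2.85 and 1.60 CPM in BURP-16SR (-5.60 ± 0.45, adjusted p = 5.89e-09). Pkp2, the plakophilin of simple epithelia and heart, ranged from 0.445 to 33.6 CPM (median 3.94) in Ba/Sq tumors, the lowest being 1 count in C102-M30. It was 13.3, 16.2 and 9.74 CPM in BURP-19NE and 7.33, 9.92 and 13.1 CPM in BURP-16SR. The highest values of both lines were inside the Ba/Sq range only through C148-M3 of BURP-18BaSq (33.6 CPM), the next Ba/Sq tumor being at 12.6 CPM. Of the 18 Ba/Sq tumors, 14 lay below every BURP-19NE tumor and 12 below every BURP-16SR tumor. Neither difference passed the test (log2 fold changes 0.99 ± 0.72 SE, adjusted p = 0.306, and 0.70 ± 0.75, adjusted p = 0.528). In 1 fit of all 24 tumors with a coefficient per line, both did (1.498, adjusted p = 0.00159, and 1.13, adjusted p = 0.0165).

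As a share of the summed CPM per kb of Pkp1, Pkp2 and Pkp3, Pkp1 made up 76.8% ± 8.21 (SD, n = 18) in Ba/Sq tumors, 39.3% ± 25.2 (n = 3) in BURP-19NE and 4.51% ± 3.47 (n = 3) in BURP-16SR. Pkp2 made up 0.660% ± 0.914, 17.8% ± 4.12 and 65.4% ± 15.9. Among Pkp1, Pkp2 and Pkp3, Pkp2 thus had the most RNA per kb in BURP-16SR, at a level in CPM above most Ba/Sq tumors. Pkp4, which was left out of this sum, averaged 45.6 CPM in BURP-16SR against 10.1 CPM for Pkp2.

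Per kb, Perp had the highest mean level of the 10 genes in both lines (59.5 CPM per kb in BURP-19NE and 10.9 in BURP-16SR). It lay between 416 and 1048 CPM (median 749) in Ba/Sq tumors, at 103, 126 and 119.6 CPM in BURP-19NE and at 31.9, 26.6 and 5.28 CPM in BURP-16SR. The differences were 6.48-fold (log2 fold change -2.71 ± 0.28 SE, adjusted p = 1.89e-07) and 35.4-fold (-5.05 ± 0.48, adjusted p = 7.18e-08). Of the transcription factors that act on Perp, Trp63 RNA fell with it (393 CPM in Ba/Sq, 0.369 in BURP-19NE and 0.133 in BURP-16SR), whereas Trp53 did not pass the test in either line (97.9, 77.5 and 63.4 CPM). The paper's protein staining differs from this RNA, with high TP63 in BURP-19NE and TP63 in some cells of BURP-16SR. It reports no TP63 staining of cells in the Ba/Sq lines BURP-17BaSq and BURP-24BaSq.

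Between BURP-16SR and BURP-19NE, 6 of the 10 genes had enough counts to test, and 3 were lower in BURP-16SR, where 8.86% of the 17556 genes tested were called lower. These were Pkp1 (log2 fold change -5.50 ± 1.12 SE, adjusted p = 0.0117), Pkp3 (-2.60 ± 0.46, adjusted p = 0.00716) and Perp (-2.34 ± 0.61, adjusted p = 0.0277, edgeR, 3 tumors a line). Pkp1 was at most 1.11 CPM in BURP-16SR and at least 4.65 CPM in BURP-19NE. Dsp (-2.15 ± 0.91, adjusted p = 0.11), Jup (0.09 ± 0.34, adjusted p = 0.867) and Pkp2 (-0.28 ± 0.28, adjusted p = 0.472) were not called. Perp was no longer called when any 1 BURP-19NE tumor was left out (adjusted p from 0.0703 to 0.0799), and Dsp was called without BURP-16SR replicate 1, C73-M10 (-4.45, adjusted p = 0.0136).

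Among the 6 Ba/Sq lines, 6 of the 10 genes differed by the edgeR F test (Dsc3, adjusted p = 2.58e-05; Pkp2, 0.00136; Dsc2, 0.00322; Dsg3, 0.0161; Dsg2, 0.0307; Pkp3, 0.0349), near the 50.5% of all 20523 genes tested that did. Dsp (adjusted p = 0.601), Pkp1 (0.194), Perp (0.148) and Jup (0.124) did not pass. The ratio of the highest to the lowest line mean was 20.1 for Dsg2, 11.7 for Pkp2, 8.09 for Dsc2, 7.31 for Dsc3 and 5.28 for Dsg3, and it ran from 1.61 (Perp) to 2.35 (Jup) for the other 5 genes. The widest line-to-line ranges thus belonged to the cadherins and to Pkp2.

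Dsc3 was highest in BURP-12BaSq, with 533, 489 and 545 CPM, followed by BURP-18BaSq with 216, 355 and 299 CPM. The tumors of these lines did not overlap with each other or with any of the remaining 12 Ba/Sq tumors, which lay between 48.2 and 147 CPM. Line means then ran from 97.8 ± 44.0 CPM (SD, n = 3) in BURP-17BaSq through BURP-24BaSq (89.8 ± 19.7) and BURP-25BaSq (86.4 ± 13.9) to BURP-21BaSq (71.4 ± 21.2), with neighbors in this order overlapping. Dsc2 took another order. It was highest in BURP-24BaSq, with 823, 802 and 578 CPM, and then in BURP-17BaSq, with 215, 647 and 299 CPM, while BURP-12BaSq had 88.2, 76.8 and 107 CPM. BURP-18BaSq was uneven, with 27.4, 218 and 52.2 CPM, and BURP-25BaSq (119.9, 133 and 273 CPM) and BURP-21BaSq (128, 183 and 79.2 CPM) overlapped it.

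The make-up of the desmocollins therefore differed from line to line. Dsc3 made up 84.8% ± 1.62 (SD, n = 3) of the summed CPM per kb of Dsc1, Dsc2 and Dsc3 in BURP-12BaSq and 78.1% ± 14.8 in BURP-18BaSq, but 10.6% ± 1.24 in BURP-24BaSq and 20.6% ± 2.11 in BURP-17BaSq. BURP-21BaSq (35.3% ± 10.8) and BURP-25BaSq (34.0% ± 8.67) lay between, and Dsc1, the desmocollin of the upper epidermis, made up at most 2.32% in any Ba/Sq tumor. The lowest Dsc3 share in BURP-12BaSq and BURP-18BaSq (61.1%) lay above the highest share in the other 12 tumors (47.5%).

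Dsg3 was the main desmoglein RNA of the Ba/Sq tumors per kb, at 70.0% ± 13.4 (SD, n = 18) of the summed desmogleins, with Dsg1b at 18.8% ± 16.4 and Dsg2 at 10.05% ± 7.98. Its line means ran from 681 ± 158 CPM (n = 3) in BURP-24BaSq to 129 ± 38.6 in BURP-21BaSq. The tumors of BURP-24BaSq had 796, 746 and 500.5 CPM, those of BURP-12BaSq 503, 486 and 499.7 CPM, and those of BURP-21BaSq 126, 169 and 91.8 CPM. BURP-18BaSq was again uneven in Dsg3, with 36.4, 343 and 198 CPM.

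Dsg2 was highest in BURP-12BaSq (113, 139 and 155 CPM) and lowest in BURP-21BaSq (15.5, 4.30 and 0.493 CPM), and these lines did not overlap. BURP-18BaSq, with 20.6, 32.1 and 7.54 CPM, was also below BURP-17BaSq (45.8, 50.8 and 70.5) and BURP-24BaSq (80.9, 63.1 and 36.9). In BURP-25BaSq, C102-M3 and C102-M30 had 147.95 and 169 CPM, whereas C102-M1 had 4.53 CPM, inside the range of BURP-21BaSq. The Dsg1b share of C102-M1 was 46.95%, against 0.577% and 3.59% in the other tumors of its line and from 23.65% to 45.99% in BURP-21BaSq. Its Dsp of 5509 CPM, against 1725 and 1149 CPM in the other tumors of its line, lay inside the BURP-21BaSq range (2643 to 5990 CPM). The line mean of BURP-25BaSq for Dsg2 was 107 ± 89.5 CPM with C102-M1 and 158 ± 14.9 CPM without it.

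**Figure D4:**
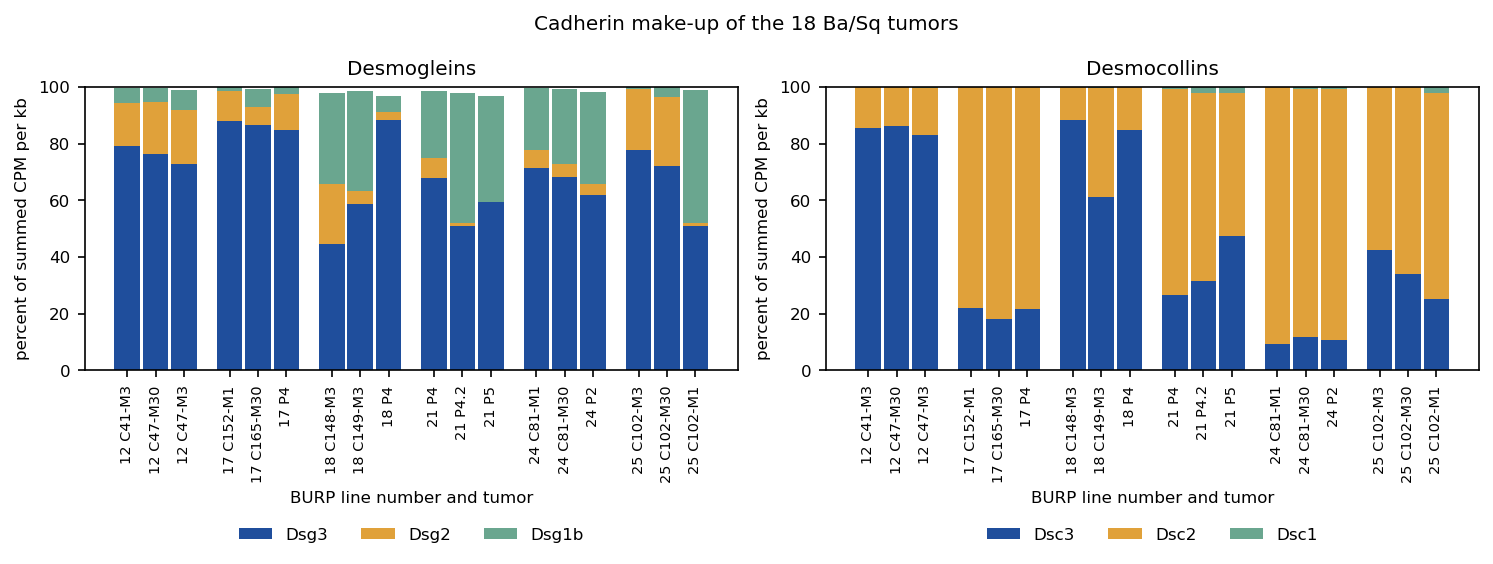
Share of the summed CPM per kb held by each desmoglein (left; Dsg1a, Dsg1c and Dsg4 fill the rest up to 100%) and each desmocollin (right) in the 18 Ba/Sq tumors. Dsc3 (blue, right) is the larger part in all tumors of BURP-12BaSq and BURP-18BaSq and the smaller part in the other 12 tumors, and Dsg1b (green, left) stands out in C102-M1 (46.95%) against 0.577% and 3.59% in the other BURP-25BaSq tumors.

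With each Ba/Sq line set against the mean of the other 5, 9 of 60 pairs of gene and line were called. BURP-12BaSq, in which 11.1% of all genes were called in either direction, was higher in Dsc3 (log2 fold change 2.25 ± 0.20 SE, adjusted p = 9.88e-06, edgeR) and Dsg2 (1.99 ± 0.65, adjusted p = 0.0409) and lower in Pkp2 (-1.89 ± 0.51, adjusted p = 0.0157). BURP-18BaSq (15.5% of all genes) was higher in Pkp2 (2.38 ± 0.37, adjusted p = 0.000322) and Dsc3 (1.25 ± 0.21, adjusted p = 0.000539). BURP-24BaSq (7.79%) was higher in Dsc2 (2.27 ± 0.40, adjusted p = 0.00167) and Dsg3 (1.24 ± 0.37, adjusted p = 0.0316). BURP-17BaSq (6.18%) was higher in Pkp2 (1.32 ± 0.39, adjusted p = 0.0412), BURP-21BaSq (2.86%) was lower in Dsc3 (-1.19 ± 0.25, adjusted p = 0.0183), and BURP-25BaSq (2.59%) had none of the 10 genes called.

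Leaving out C102-M1 brought the count to 12 pairs. BURP-21BaSq was then also lower in Dsg2 (-3.39, adjusted p = 0.00879) and Dsg3 (-1.68, adjusted p = 0.0266), and BURP-25BaSq was higher in Dsg2 (2.14, adjusted p = 0.0228, edgeR). Of the 9 pairs, Dsc3 in BURP-12BaSq, Pkp2 and Dsc3 in BURP-18BaSq and Dsc2 in BURP-24BaSq were called in each of the 18 fits that left out 1 tumor. The call on Dsg2 in BURP-12BaSq was lost in 11 of the 18, with adjusted p-values from 0.0146 to 0.147, and that on Pkp2 in BURP-17BaSq in 10.

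**Figure D5:**
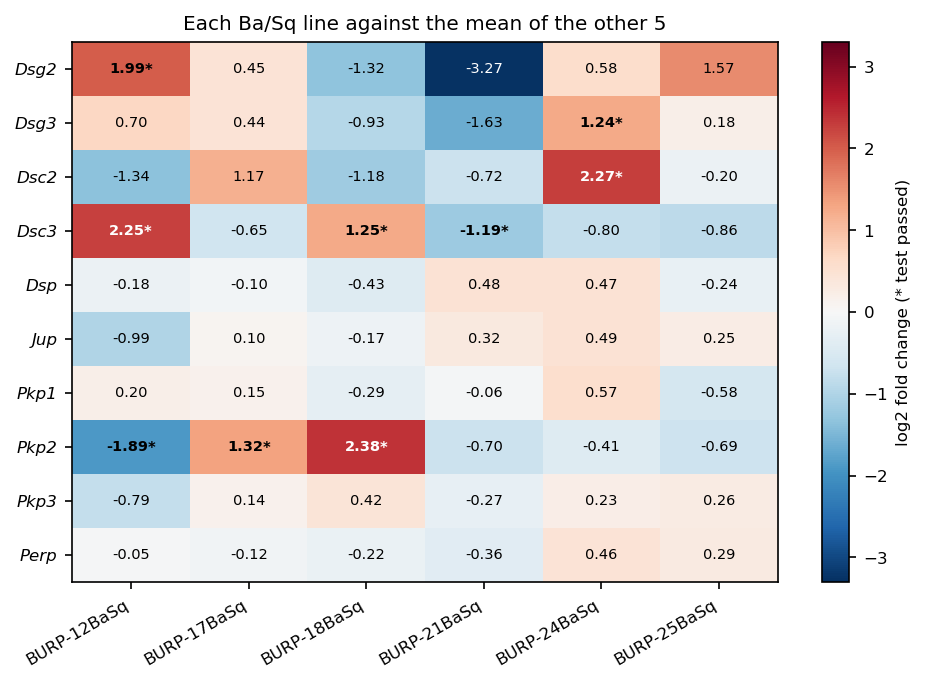
Fitted log2 fold change of each desmosome gene (rows) in each Ba/Sq line (columns) against the mean of the other 5 lines, red where higher and blue where lower, with an asterisk where the test was passed. The 9 called cells fall on Dsg2, Dsg3, Dsc2, Dsc3 and Pkp2, and the Dsp, Jup, Pkp1, Pkp3 and Perp rows have none.

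Pkp2 separated some Ba/Sq lines. BURP-18BaSq had 33.6, 12.6 and 8.50 CPM and BURP-17BaSq 8.76, 10.02 and 11.03 CPM, whereas the 12 tumors of the other 4 Ba/Sq lines lay between 0.445 and 4.71 CPM. BURP-12BaSq was the lowest, with 2.03, 1.86 and 0.772 CPM. Dsp, Jup, Pkp1 and Perp had overlapping tumors between most neighboring lines. In Dsp the spread within BURP-25BaSq (2795 ± 2369 CPM, SD, n = 3) exceeded the range of the line means (2488 to 4233 CPM). That spread came from C102-M1 (5509 CPM). Without it, BURP-25BaSq was at 1437 ± 408 CPM (SD, n = 2), the lowest of the line means, and its spread no longer exceeded their range.

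In male against female Ba/Sq tumors, 1 of the 10 genes was called, where 2.31% of 17922 genes were called in either direction. Dsc3 was higher in the male tumors, with 303 ± 189 CPM (SD, n = 9) against 82.5 ± 18.1 (n = 9), a log2 fold change of 1.88 ± 0.36 SE (adjusted p = 0.00848, edgeR). The difference rested on BURP-12BaSq and BURP-18BaSq, since the third male line, BURP-17BaSq, lay between 62.3 and 147 CPM and overlapped the female tumors (48.2 to 111 CPM). Sex belongs to the line, and with counts summed per line (3 against 3 lines) Dsc3 was not called (adjusted p = 0.72). Pkp2 (1.61 ± 0.54, adjusted p = 0.0841) and Jup (-0.54 ± 0.24, adjusted p = 0.179) came next, and the other 7 genes had adjusted p-values from 0.403 to 0.995.

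The partners of the desmosome were low in the same lines in part. Of the 6 related lists, the keratins it anchors had the lowest median, with 7 of 8 called lower in BURP-19NE (median log2 fold change -13.42, or -13.18 with genes at 0 set at their bound) and 6 of 8 in BURP-16SR (-14.07, or -13.43), where over all genes 1867 were called higher and 3250 lower of 20995, and 2217 higher and 1813 lower of 21028. Krt5, the basal keratin, averaged 4130 CPM in Ba/Sq, 0.0139 in BURP-19NE and 0.112 in BURP-16SR. Krt5, Krt14, Krt6a, Krt6b, Krt16 and Krt17 had too few counts to be tested between BURP-16SR and BURP-19NE. They passed the filter on low counts only through the Ba/Sq tumors, as did Krt8 in BURP-19NE, and could only come out lower. The simple keratin Krt18 was not called in either line (79.9, 166 and 228 CPM), and its partner Krt8 was higher in BURP-16SR than in BURP-19NE (122 against 0.0902 CPM, log2 fold change 10.35). Of the 5 tested desmosomal genes outside the 10, all 5 were lower in both lines (medians -8.42 and -8.33, or -3.78 and -3.10 at the bound). Dsg1a, Dsg1b, Dsg4 and Dsc1, cluster genes already counted above, had 0 counts in both lines. They passed the filter on low counts only through the Ba/Sq tumors, so they could only come out lower. The remaining gene was the widely expressed armadillo protein gene Pkp4 (122, 42.9 and 45.6 CPM).

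Of the plakins and linkers, 4 of 6 were lower in BURP-19NE (median -5.06) and 3 of 6 in BURP-16SR (median -2.61). Evpl, the cornified envelope plakin, fell from 381 CPM to 0.670 and 0.356 CPM, and Ppl, its partner, from 599 to 1.52 and 20 CPM. The broadly expressed plakins Plec and Dst were not called in either line, with Dst at 848 CPM in Ba/Sq, 844 in BURP-19NE and 1108 in BURP-16SR. The hemidesmosome genes, which attach basal cells to the matrix, were lower for 5 of 7 in BURP-19NE (median -5.36) and 6 of 7 in BURP-16SR (-5.39), and Col17a1 was the most reduced (965, 1.21 and 0.813 CPM).

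Of the adherens junction, the actin-linked counterpart of the desmosome, 4 of 10 genes were lower in BURP-19NE (median -2.48), and 5 lower and 1 higher in BURP-16SR (median -1.13). Cdh1, E-cadherin, fell from 484 CPM to 1.35 in BURP-19NE (log2 fold change -8.50) and 5.29 in BURP-16SR (-6.44). Cdh3, also called lower in both lines, passed the filter on low counts only through the Ba/Sq tumors. Ctnnb1, beta-catenin, the close relative of plakoglobin, was not called in either line (445, 426 and 567.8 CPM), nor was alpha-catenin Ctnna1 (285, 310.2 and 224 CPM). N-cadherin, Cdh2, was higher in BURP-16SR (44.1 against 2.6 CPM, log2 fold change 4.19, adjusted p = 0.00163), and its 0.287 CPM in BURP-19NE did not pass the test (adjusted p = 0.126).

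Of the 15 regulators tied to epithelial junctions, which are transcription factors except for the splicing regulators Esrp1 and Esrp2, 10 were lower and 3 higher in BURP-19NE (median -6.68, or -6.38 with genes at 0 set at their bound), and 10 lower and 4 higher in BURP-16SR (-5.88). Grhl3, a grainyhead factor of surface epithelia, averaged 66.9 CPM in Ba/Sq tumors and had 0 counts in both lines, at least 425.5-fold and at least 264.5-fold lower. Esrp1 was at 173 CPM in Ba/Sq and at 0 counts in BURP-19NE (at least 1102-fold lower) and 0.0281 CPM in BURP-16SR. Trp63, Grhl2, Grhl3, Ovol1, Ovol2 and Esrp1 had too few counts to be tested between BURP-16SR and BURP-19NE. These genes passed the filter on low counts only through the Ba/Sq tumors and could only come out lower. Zeb1, a repressor of epithelial genes, rose from 13.98 CPM to 122.5 in BURP-19NE (log2 fold change 3.12) and 101.5 in BURP-16SR (2.93), and Zeb2 and Twist1 were also called higher in both. Snai2, a Snail family repressor, went the other way, from 47.4 CPM to 0.349 in BURP-19NE (log2 fold change -7.04, adjusted p = 1.07e-07) and 4.87 in BURP-16SR (-3.21, adjusted p = 3.82e-05). Snai1 was higher in BURP-16SR (9.09 against 1.33 CPM, log2 fold change 2.84) and not in BURP-19NE (0.459 CPM, adjusted p = 0.117), and the difference between these lines passed the test (4.38).

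Markers of other cell types were measured in the same tumors, and their part in the results was not tested. The 7 fibroblast markers summed to between 206 and 9736 CPM in Ba/Sq tumors, 1164 to 1892 in BURP-19NE and 579 to 19904 in BURP-16SR, with none at 0 in all tumors of a group. The BURP-19NE sum was mostly Col3a1 (mean 1294 CPM against 562 in Ba/Sq), and Pdgfra was also higher there (22.4 against 13.2). Col1a1 (147 against 708 CPM), Col1a2, Dcn, Lum and Pdgfrb had lower means in BURP-19NE than in Ba/Sq. The BURP-16SR tumor P5 had the lowest fibroblast sum of its line (579 CPM), below the Ba/Sq median of 1099 CPM, and its 10 desmosome genes summed to 32.3 CPM. The Ba/Sq tumor with the highest fibroblast sum, C152-M1 of BURP-17BaSq (9736 CPM), had 4719 CPM of desmosome genes. The 5 skeletal muscle markers summed to 524 CPM in C80-M1 of BURP-19NE, 119 CPM in C74-MNT of BURP-16SR and at most 32.2 CPM in Ba/Sq. The 5 endothelial and 5 leukocyte markers reached at most 290 and 244 CPM in Ba/Sq, 65.8 and 89.7 in BURP-19NE, and 275 and 350.0 in BURP-16SR.

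Of the 5 markers of suprabasal epidermis, Krt1, Flg2 and Krt2 had 0 counts in BURP-19NE and BURP-16SR, and the sum was at most 6.63 CPM there against 11.7 to 1160 CPM in Ba/Sq. Within BURP-25BaSq this sum was 1160 and 965 CPM in C102-M3 and C102-M30 but 80.4 CPM in C102-M1. The hair follicle sum, mostly Tchh in Ba/Sq, ran from 31.5 to 854 CPM there, from 0.209 to 0.314 in BURP-19NE and from 25.7 to 63.5 in BURP-16SR, where Krt27, a hair follicle keratin at 0 counts in Ba/Sq and BURP-19NE, averaged 10.6 CPM. The 4 adipocyte markers reached at most 89.2 CPM in Ba/Sq, 0.180 in BURP-19NE and 37.1 in BURP-16SR. The 8 urothelial and basal markers summed to 6104 to 11543 CPM in Ba/Sq, 112 to 121 in BURP-19NE, mostly Gata3 (115.5 CPM), and 30.9 to 64.0 in BURP-16SR.

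Across the 18 Ba/Sq tumors, the genes whose log2 CPM ran most like the mean of the 10 desmosome genes, among 20513 genes ranked, were 4833423E24Rik (Pearson r = 0.893), Abhd17c (0.876), Slc6a14 (0.860), Aktip (0.860) and Gm42528 (0.856). Spearman's rho was from 0.827 to 0.884, and without the 2 tumors farthest from the median r was from 0.799 to 0.863. These are descriptions over tumors that share donors and library effects. Of the 10 genes, Dsg3 (r = 0.822) and Dsc2 (0.754) ran closest to this mean, of which each is a part, and Dsc3 (0.161) and Pkp2 (-0.03) hardly followed it.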

How the data were processed

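RNA of 24 BURP tumors was sequenced after RiboErase depletion. Per the labels and the study's methods, the authors used CASAVA 1.8.2, STAR 2.6.0a and RSEM 1.3.1 with GRCm38 and deposited RSEM estimated counts (expected counts) per gene, not normalized. Since RSEM shares out reads with more than 1 possible gene, 12.5% of the values had a fraction, and all were rounded to whole counts. The strand setting of the counting is not given in the sources used here, so reads of Dsg2 and Dsp cannot be told from those of the overlapping antisense genes Gm16090 and Gm10129, which held 199 and 727 counts over all tumors. Symbols and positions came from a GRCm38 annotation (GENCODE), which covered 99.6% of the identifiers. Line numbers came from the sample labels, and line names, subtype and sex from the paper.

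Tests used R 4.3.3, edgeR 4.0.16 (TMM, filterByExpr, glmQLFit and glmQLFTest, robust off), limma 3.58.1 and, as an alternative, DESeq2 1.42.0. A gene was called at a Benjamini-Hochberg adjusted p under 0.05 over all genes tested and an absolute log2 fold change above 1, or by adjusted p alone in the F test among lines. Each fit held only the groups compared. Fold ratios use mean CPM, and a line with 0 counts was set at 3 counts in its shallowest library. Levels per kb used the union of a gene's exons. With the longest transcript, Jup had 209 CPM per kb in Ba/Sq tumors in place of 104. The likeness ranking used log2(CPM + 2). The fits were tested on simulated data. Total counts per tumor (median 17693147) set the floors given with the levels.

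The named genes were the 10 desmosome genes and, from each related list, at most 4 with the largest change or those singled out as not called. The members, lists and alternatives were chosen with earlier results of these data known. Cluster neighbors, and list genes named beyond the rule, were chosen after their values were seen. Alternatives were DESeq2's size factors, DESeq2, other filters, no ribosomal RNA genes, all 24 tumors in 1 fit, counts summed per line, a fit of 2 groups, and each tumor left out.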

Additional observations from a re-analysis of the deposited data

Results flagged for a closer look

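The Dsg3 level of BURP-18BaSq tumor C148-M3, 36.4 CPM, stood apart from the other 8 male Ba/Sq tumors, which lay between 198 and 568.1 CPM, by the size of its gap relative to the range of the group on the log2(CPM + 2) scale. The 10 genes were examined in the male and the female Ba/Sq tumors (9 each), and chance flags about 1 in 20 such groups. The same tumor had the lowest Dsc2 (27.4 CPM) and the highest Pkp2 (33.6 CPM) of all Ba/Sq tumors, while its Perp (611 CPM) and Pkp3 (189 CPM) lay inside the ranges of the others.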

How the results depend on the processing

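The 9 genes called lower in BURP-19NE and in BURP-16SR were 9 in each of the fits that left out 1 tumor (9 to 9 in both comparisons), without C102-M1 and without C102-M30. With at least 10 counts required in every tumor, which removes genes at or near 0 in a line, 5 genes were called in BURP-19NE and 3 in BURP-16SR. These were all of the 10 genes that could still be tested: Dsp, Jup, Pkp1, Pkp3 and Perp in BURP-19NE, and Jup, Pkp3 and Perp in BURP-16SR. Pkp2 was removed through its 1 count in C102-M30. Leaving out 1 tumor gave 2 to 4 genes for BURP-16SR against BURP-19NE, 4 to 8 for the F test among lines, 6 to 12 pairs of gene and line, and 1 to 2 genes for sex, the second being Pkp2 without BURP-12BaSq replicate 3, C47-M3 (adjusted p = 0.0428). Jup and Pkp1 passed the F test without BURP-18BaSq replicate 2, C149-M3 (adjusted p = 0.0375 and 0.0204), and in these 18 fits Pkp3 was lost in 9 and Dsg2 in 4. DESeq2 called 14 pairs of gene and line and 2 genes for sex (adding Pkp2, 1.65, adjusted p = 0.0216), a fit of 2 groups called 3 pairs, and counts summed per line gave 0 genes for sex, with Dsc3 at 1.82. With all 24 tumors in 1 fit, Dsp was also lower in BURP-16SR than in BURP-19NE (-2.27, adjusted p = 0.035), Pkp3 among lines (adjusted p = 0.0825) and Dsc3 in BURP-21BaSq (0.0823) were lost, and small differences that no test had called changed sign: Jup between BURP-16SR and BURP-19NE (-0.01), and Dsg3 (0.11) and Pkp1 (0.033) between the sexes. With 1 tumor left out these ran from -0.201 to 0.445, from -0.209 to 0.094 and from -0.103 to 0.094, and Pkp3 between the sexes from -0.213 to 0.001. The cause was not tested for any of these shifts. Without C102-M1 the F test called 6 genes and without C102-M30 also 6, with 12 and 10 pairs. No paired analysis was possible because the replicate numbers only name tumors, and no number is shared between lines as a donor, day or batch. Low-level calls are limited by depth: in C102-M30, with 9021 counts on the 10 genes, levels under 1.33 CPM could not be measured. Each subtype outside Ba/Sq is 1 line, so line and subtype cannot be told apart.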
